A study of Caenorhabditis elegans with 6 samples.

Results

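The *C. elegans* eggshell and permeability barrier genes described here are *cbd-1*, *chs-1*, *cpg-1*, *cpg-2*, *cpg-3*, *egg-1*, *egg-2*, *egg-3*, *perm-2* and *perm-4*. They were chosen by gene symbol, for what their products do in the egg, and are 10 of the 46756 genes in the deposited table of counts. All 10 were matched and all 10 had enough counts to be tested. Messenger RNA came from whole hermaphrodites on adulthood day 2, with 3 libraries from worms that had fewer than 2 exophers each (low exopher) and 3 from worms that had more than 20 (high exopher). Exophers are big membrane-bound vesicles, and those counted here were shed by muscle cells of the body wall. Worms of both groups were of strain ACH93 in the N2 wild-type background, which carries a wrmScarlet-tagged proteasome subunit (RPN-5) and a mitochondrial outer membrane GFP, both driven by the muscle promoter of *myo-3*, and was grown on *E. coli* OP50. No treatment or mutation separated the groups, which were sorted from age-synchronized worms by their exopher number. The sources used here do not give the number of worms per library.

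The eggshell of *C. elegans* is built around each egg at fertilization, in layers laid down from the outside in. The outer vitelline layer covers the oocyte already before a sperm arrives, the middle layer is chitin, the inner layer is made of chondroitin proteoglycans, and a lipid-rich permeability barrier forms inside them. The RNAs for these proteins are made in the germ line and stored in oocytes, and early embryos inherit them. Their level in a whole worm therefore reports on oocytes and on young embryos in the uterus at once, and in bulk RNA fewer such cells cannot be told apart from less RNA per cell.

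Library totals lay between 60511481 and 72909583 counts. Of the 15883 genes that passed the filter on low counts, 911 (5.74%) were called between the groups in edgeR's quasi-likelihood test, 2.95% higher and 2.78% lower in high exopher worms. A call needed a log2 fold change beyond 1 in either direction together with an adjusted p under 0.05, a p that 6.51% of the genes had. The 14 oocyte markers, among them *oma-1* and the yolk receptor gene *rme-2*, were all tested, and their summed level was 506299 to 656441 normalized counts over the 6 libraries, with overlapping groups. The body wall muscle markers summed to 93684 to 114312 in low exopher replicates and 73724 to 90720 in high exopher ones, without overlap. Of these 6 markers, 4 had a log2 fold change below 0 and 2, among them *myo-3*, above 0. The sperm markers summed to 1737 to 3095 normalized counts in low exopher replicates and 922 to 1319 in high exopher ones, without overlap. Of 11 sperm markers tested, 3 were called lower (*spe-8*, *gsp-3* and *gsp-4*) and none higher. Without high replicate 1, where 0 of all genes were called lower, these 3 calls were lost, and with the replicate block 4 were called. *gsp-3*, a phosphatase gene of sperm, had 443, 70 and 99 raw counts in low exopher replicates 1, 2 and 3 and 0, 1 and 1 in the high exopher ones. The part of the sperm and muscle differences in the results that follow was not tested.

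Eggshell RNAs were abundant in the worm. Together the 10 genes took 1.23%, 1.17% and 1.48% of all counts in low exopher replicates 1, 2 and 3, and 1.18%, 1.06% and 1.43% in high exopher replicates 1, 2 and 3. By normalized count, which is the count scaled to a common library size, *cbd-1* ranked 10th, *cpg-2* 14th and *cpg-1* 18th of the 15883 genes, and the lowest of the 10, *egg-3*, ranked 844th. These ranks are not corrected for transcript length. Per kilobase of exon, *cbd-1* ranked 149th, *cpg-2* 98th, *cpg-1* 108th and *egg-3* 1039th among the tested genes with a known exon length.

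Levels of different genes were compared per kilobase of exon, because longer transcripts give more reads. On this scale the genes formed steps. The highest step held *cpg-2*, *perm-2*, *perm-4* and *cpg-1*, with means over the 6 libraries of 95710, 93542, 93430 and 81584 normalized counts per kb. The order within this step was not fixed. *cpg-2* was above *perm-2* in 3 of 6 libraries, *perm-2* was above *perm-4* in 4, and *perm-4* was above *cpg-1* in 4. *cbd-1* followed at 47734 normalized counts per kb, lower than *cpg-1* in all 6 libraries and without overlap of their ranges. *cpg-3* (35499) and *egg-1* (25934) came next, each below its upper neighbour in all 6 libraries although the ranges of neighbours overlapped. *egg-2* stood at 13169, and *chs-1* and *egg-3* closed the order at 8367 and 8247 normalized counts per kb. The last pair did not keep an order, with *chs-1* above *egg-3* in 2 of 6 libraries. In mean level per kb, the RNAs of the *cpg* and *perm* genes and of *cbd-1* thus lay above those of the *egg* genes and *chs-1*.

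**Figure D1:**
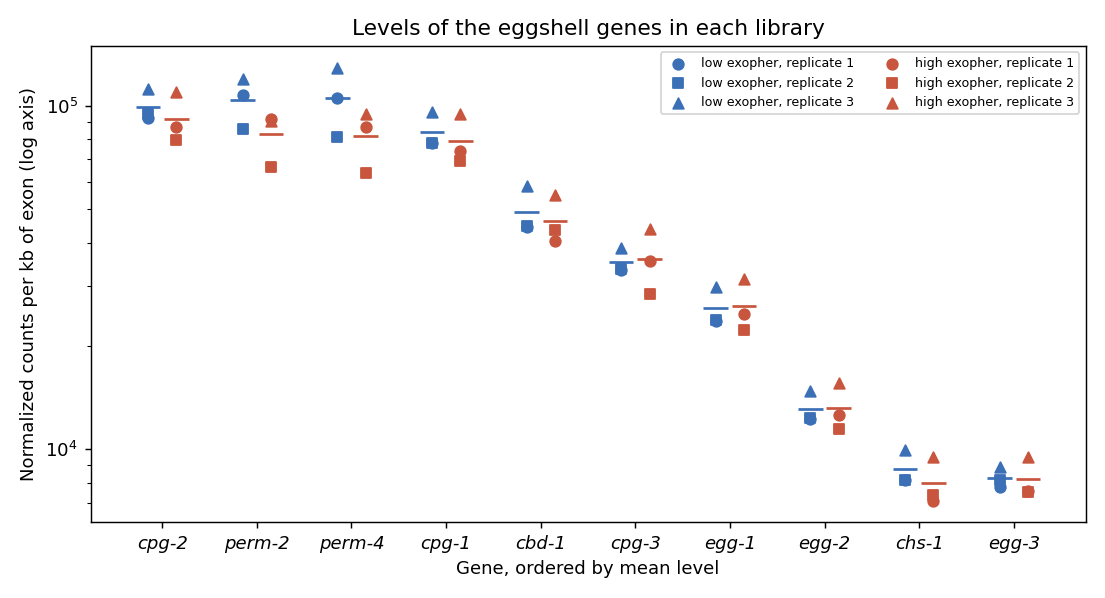
Normalized counts per kilobase of exon (log axis) for the 10 eggshell genes, ordered by mean level, in the 6 libraries. Points are libraries, with shape for the replicate number and colour for the group, and short lines are group means. Replicate 3 was the highest low exopher library for all 10 genes, and the groups overlapped for every gene.

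The vitelline layer is represented by *cbd-1*, *perm-2* and *perm-4*. CBD-1 is a chitin-binding protein on which assembly of this layer depends, and PERM-2 and PERM-4 are its partners in the layer. *perm-2* (WBGene00016636) and *perm-4* (WBGene00016638) are also neighbours in the genome. In the Ensembl release 115 annotation of WBcel235, *perm-4* lies on the reverse strand of chromosome IV from 1121494 to 1125107 and *perm-2* on the forward strand from 1126790 to 1128865. They point away from each other across 1682 bases, with no other protein-coding gene between them. Their exons add up to 1106 bases for *perm-4* and 736 bases for *perm-2*, of which 25 bases of *perm-2* are shared with a coding gene on the other strand.

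*perm-2* had 78958, 63152 and 88132 normalized counts in low exopher replicates 1, 2 and 3, and 67346, 48879 and 66615 in high exopher replicates 1, 2 and 3. The highest high exopher library lay above the lowest low exopher library, so the groups overlapped, but within each replicate number the high exopher library was the lower one. The mean of the low exopher libraries was 76747 ± 12636 (SD, n = 3), and that of the high exopher libraries was 60946 ± 10457 (SD, n = 3). The log2 fold change, high over low, was -0.33 (standard error 0.165, 95% interval -0.72 to 0.050), and edgeR's quasi-likelihood test gave an adjusted p of 0.385.

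*perm-4* had 116479, 89590 and 142989 normalized counts in low exopher replicates 1, 2 and 3, against 95908, 70472 and 104568 in the same order in high exopher ones. Again the groups overlapped while every high exopher library was below the low exopher library of its number. Its log2 fold change was -0.37 (standard error 0.202, 95% interval -0.83 to 0.10, adjusted p = 0.451 from edgeR). The differences within the numbers were -0.28, -0.35 and -0.45 on the log2 scale for *perm-4* and -0.23, -0.37 and -0.40 for *perm-2*.

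Across genes, deviations from the group mean correlated at 0.259 to 0.345 between the low and high exopher libraries of one replicate number. Correlations between libraries of different numbers are not given here. The groups were also compared with the replicate number as a block. With this replicate block the log2 fold change of *perm-2* was -0.33 (standard error 0.0679, 95% interval -0.49 to -0.18), a level 0.793 times that of low exopher worms, with an adjusted p of 0.0188 from edgeR. That of *perm-4* was -0.36 (standard error 0.0705, 95% interval -0.52 to -0.19), or 0.780 times, with an adjusted p of 0.0166 from edgeR. In the same fit 12.4% of all genes tested had an adjusted p below 0.05, and 5.86% were lower with such a p. Both genes stayed below the fold change that a call needs, which 7.97% of all genes tested passed in this fit together with the p. Without both libraries of number 3 the adjusted p from edgeR was 0.212 for *perm-2* and 0.212 for *perm-4*, with log2 fold changes of -0.30 and -0.31, and without number 1 or number 2 it was between 0.0105 and 0.0390. The part of the smaller number of libraries in this was not tested.

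The ratio within the gene pair was also computed. The count of *perm-4* over that of *perm-2* was 1.48, 1.42 and 1.62 in low exopher replicates 1, 2 and 3 and 1.42, 1.44 and 1.57 in high exopher ones, so the ratio ranged from 1.42 to 1.62 with overlapping groups. Relative to *cpg-2*, *perm-2* was at 0.498, 0.387 and 0.457 in low exopher replicates 1, 2 and 3 and 0.452, 0.356 and 0.353 in high exopher ones, and *perm-4* at 0.735, 0.549 and 0.742 against 0.643, 0.513 and 0.555. Both ratios were lower in the high exopher library of each number and overlapped between the groups. These ratios were not tested.

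*cbd-1* (WBGene00010351, chromosome IV from 11372991 to 11377627) had a smaller log2 fold change than both, a difference between genes that was not tested. Low exopher replicates had 186937, 188997 and 246537 normalized counts, against 170185, 184328 and 231928 for high exopher ones. On the log2 scale it differed by -0.086 between the groups (edgeR, standard error 0.163, adjusted p = 0.880), and with the replicate block it was -0.087 (95% interval -0.26 to 0.086, adjusted p = 0.540 from edgeR).

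**Figure D2:**
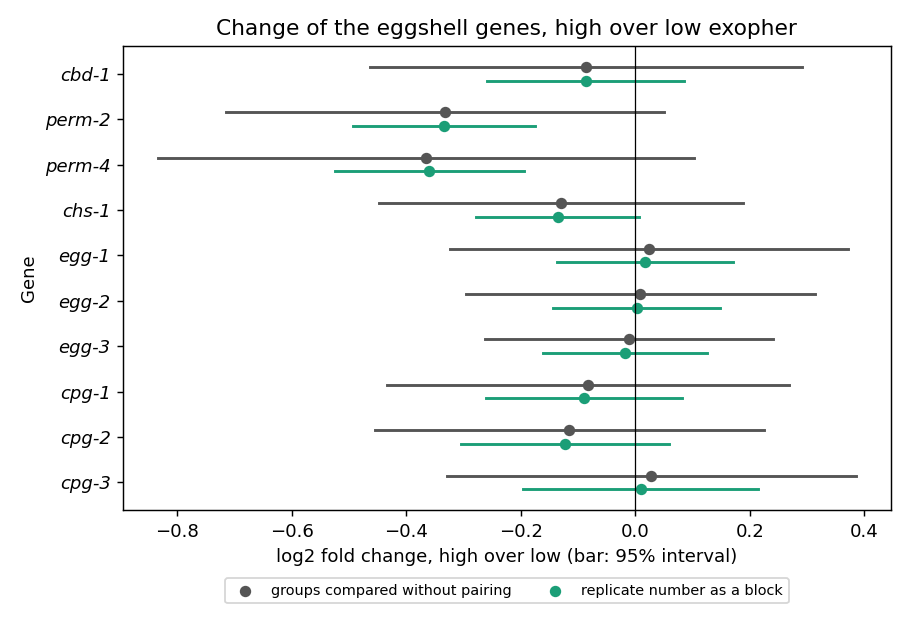
Log2 fold change, high over low exopher, of the 10 eggshell genes (points) with 95% intervals (bars), from edgeR without pairing (grey) and with a block for the number (green). The intervals of *perm-2* and *perm-4* include 0 without pairing and lie below 0 with the block, and those of the other 8 genes include 0 in both fits.

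Chitin synthesis and the egg surface are represented by *chs-1*, *egg-1*, *egg-2* and *egg-3*. CHS-1 is the chitin synthase of the egg. EGG-1 and EGG-2 are related membrane proteins with LDL receptor repeats, found on the oocyte surface and needed for sperm entry. EGG-3 is a phosphatase-like protein without the usual catalytic residues, which holds regulators of egg activation at the oocyte cortex.

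*chs-1* (WBGene00000496, chromosome I from 7554855 to 7559916) had 35018, 34885 and 42685 normalized counts in low exopher replicates 1, 2 and 3, against 30468, 31604 and 40845 in the same order in high exopher ones. It was lower in the high exopher library of each number, with log2 differences between -0.20 and -0.064, but the groups overlapped. On the log2 scale it differed by -0.13 between the groups (edgeR, standard error 0.137, adjusted p = 0.759), or -0.14 with the block (95% interval -0.28 to 0.0070, adjusted p = 0.228 from edgeR).

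*egg-1* (WBGene00015083, chromosome III from 5728180 to 5730159) and *egg-2* (WBGene00019811, chromosome III from 7058527 to 7060583) were the members with log2 fold changes nearest to 0 beside *egg-3*. *egg-1* had 42496, 42661 and 53353 normalized counts in low exopher replicates 1, 2 and 3, against 44457, 39977 and 56369 in the same order in high exopher ones. *egg-2* had 21628, 21803 and 26083 against 22247, 20176 and 27521. Both were higher in the high exopher library of numbers 1 and 3 and lower in that of number 2. The log2 fold change was 0.024 for *egg-1* and 0.0089 for *egg-2* (adjusted p = 0.969 and 0.989 from edgeR). The sign of both changed with single libraries left out, and that of *egg-2* also with RLE size factors (-0.0022).

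The count of *egg-1* exceeded that of *egg-2* by nearly the same factor in every library. The ratio was 1.96, 1.96 and 2.05 in low exopher replicates 1, 2 and 3 and 1.998, 1.98 and 2.05 in high exopher ones, a range that was narrow beside the spread of either gene. Because EGG-1 and EGG-2 are close relatives and only uniquely mapped reads were counted, reads from their shared stretches could have been lost, and the ratio is uncertain to that extent. *egg-1* also overlaps an opposite-strand gene by 42 exon bases.

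*egg-3* (WBGene00009701, chromosome II from 10882408 to 10884441) had 13986, 14588 and 15984 normalized counts in low exopher replicates 1, 2 and 3, against 13586, 13522 and 17104 in the same order in high exopher ones. The high exopher libraries spanned the low ones. On the log2 scale it differed by -0.011 between the groups (edgeR, standard error 0.108, adjusted p = 0.983), the smallest standard error of the 10 genes.

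The chondroitin proteoglycans of the egg are represented by *cpg-1*, *cpg-2* and *cpg-3*. CPG-1 and CPG-2 bind chitin, carry chondroitin chains and are released from cortical granules of the egg to form the inner eggshell layer. CPG-3 is a further chondroitin proteoglycan of the egg.

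*cpg-1* (WBGene00000465, chromosome III from 4489359 to 4491392) had 147709, 146968 and 180899 normalized counts in low exopher replicates 1, 2 and 3, against 139280, 130420 and 179395 in the same order in high exopher ones. *cpg-2* (WBGene00015102, chromosome III from 7102092 to 7103990) had 158401, 163264 and 192761 against 149133, 137314 and 188576. Both were slightly lower in the high exopher library of each number, with most of the difference in number 2 (-0.17 for *cpg-1* and -0.25 for *cpg-2* on the log2 scale). The log2 fold changes were -0.083 and -0.11 (adjusted p = 0.874 and 0.805 from edgeR), and with the block -0.090 and -0.12 (adjusted p = 0.523 and 0.403). The count of *cpg-1* over that of *cpg-2* lay between 0.900 and 0.951 in all 6 libraries.

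*cpg-3* (WBGene00011063, chromosome I from 7244937 to 7246295) had 34273, 34407 and 39754 normalized counts in low exopher replicates 1, 2 and 3, against 36394, 29200 and 44931 in the same order in high exopher ones. It had the highest log2 fold change of the 10, 0.028 (standard error 0.154, adjusted p = 0.964 from edgeR), and the widest spread of high exopher libraries, a coefficient of variation of 21.4%. It overlaps an opposite-strand gene by 36 exon bases.

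**Figure D3:**
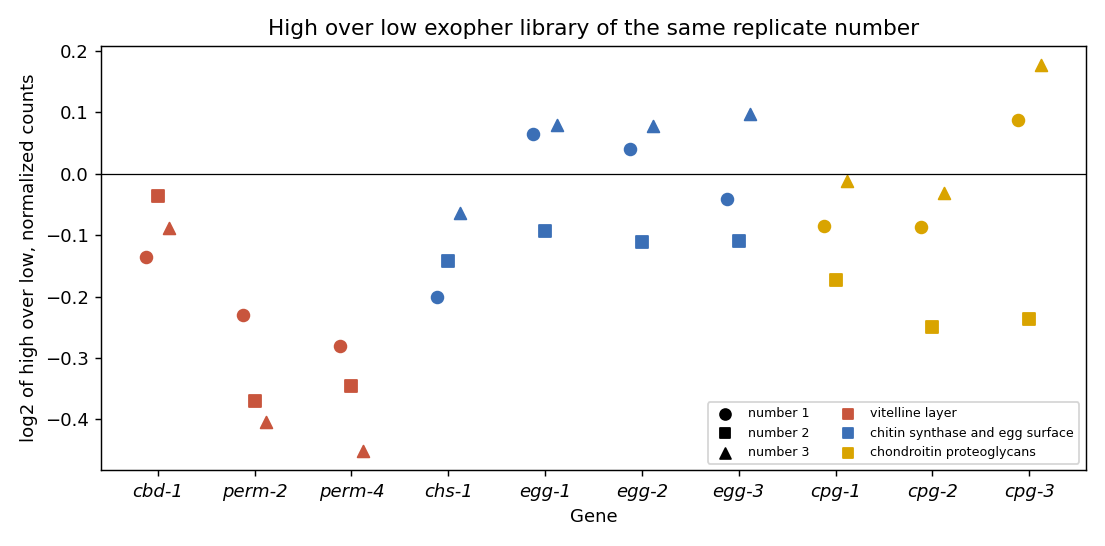
Log2 of the normalized count in the high exopher library over that in the low exopher library of the same replicate number, for each of the 10 eggshell genes (colour, role; shape, number). All 3 values lie below 0 for *cbd-1*, *perm-2*, *perm-4*, *chs-1*, *cpg-1* and *cpg-2*, with those of *perm-2* and *perm-4* between -0.23 and -0.45.

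Across the 10 genes the comparison of groups found no call. None passed both thresholds (5.74% of all genes tested did), and none had an unadjusted p below 0.05 in edgeR (17% of all genes tested did), in DESeq2's Wald test or in limma-voom. In none did the normalized counts of the groups separate without overlap, as they did in 21.7% of all genes tested. The median log2 fold change was -0.084, beside -0.013 over all genes tested, with 7 genes below 0 and 3 above. Within replicate numbers 6 of the 10 were lower in the high exopher library 3 times of 3 and 4 were mixed, where 24% of all genes tested were lower 3 times of 3. The intervals say how large a difference could have gone unseen. For the 8 genes other than *perm-2* and *perm-4*, the 95% intervals of the fold change lay between 0.726 and 1.31 without pairing and between 0.809 and 1.16 with the block.

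A larger difference was that between replicates. Replicate 3 was the highest low exopher library for all 10 genes and the highest high exopher library for 9 of them, the exception being *perm-2*. It was highest in both groups for 16.1% of all genes tested, and for all 14 oocyte markers. The summed level of the 10 genes was 835885, 800316 and 1029180 normalized counts in low exopher replicates and 769003, 705892 and 957853 in high exopher ones. Divided by the summed level of the oocyte markers, it was 1.57, 1.496 and 1.57 in low exopher replicates 1, 2 and 3 and 1.52, 1.37 and 1.47 in high exopher ones. This ratio varied less among the libraries than the sum did, and it was lower in the high exopher library of each number, with overlapping groups. The part of *perm-2* and *perm-4* together in this ratio was 0.367, 0.286 and 0.352 in low exopher replicates 1, 2 and 3. In high exopher ones it was 0.322, 0.232 and 0.262, also lower in each number. Neither the ratio nor this part was tested.

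Outside the 10 genes, those whose pattern over the 6 libraries was most like theirs were ZC308.4, *cup-15*, M01E11.1, *apx-1* and *puf-6*. *apx-1* encodes a Notch ligand supplied by the mother and *puf-6* an RNA-binding protein of the Pumilio family. Likeness was Pearson's r of log2 CPM with the mean standardized profile of the 10 genes, and was 0.998, 0.998, 0.998, 0.997 and 0.997 in that order, the highest among 7508 genes with at least 10 CPM (counts scaled to a fixed library total), over 6 libraries that share their scaling. Among the 10 themselves r ran from 0.720 for *perm-2* and 0.817 for *perm-4* to 0.997 for *cpg-1*, where each gene is also part of the mean.

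The rest of the eggshell pathway was taken from lists covering egg activation, chitin precursors, chondroitin synthesis, the permeability barrier, cortical granule exocytosis and other *cpg* genes. Of the 35 genes tested in these lists, 0 passed both thresholds in either direction, with edgeR, DESeq2 or limma-voom, beside 5.74% of all genes tested. At an unadjusted p below 0.05 there were 2 with edgeR, where 17% of all genes tested had such a p, 3 with DESeq2 and 2 with limma-voom. The medians of the lists ran from -0.065 for egg activation to 0.053 for the other *cpg* genes. With the replicate block 2 of the 35 had an adjusted p below 0.05, *emb-8* and *cav-1*, beside 12.4% of all genes tested.

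*emb-8* encodes the NADPH-cytochrome P450 reductase needed for the permeability barrier. It had 14059, 15645 and 16082 normalized counts in low exopher replicates 1, 2 and 3, against 11627, 14011 and 12716 in the same order in high exopher ones, and the groups did not overlap. On the log2 scale it differed by -0.26 between the groups (edgeR, standard error 0.0912, adjusted p = 0.185), and with the block -0.26 with an adjusted p of 0.0287. *pod-2*, which encodes acetyl-CoA carboxylase, the enzyme that opens fatty acid synthesis, was likewise without overlap of the groups in its normalized counts (22825, 22553 and 21919 against 18839, 21493 and 18238), with an adjusted p of 0.263 from edgeR, or 0.0901 with the block. The other 7 permeability barrier genes, including *fasn-1*, *dgtr-1* and *perm-1*, had log2 fold changes between -0.071 and 0.12. Separation of the groups was thus seen in 2 of the 9 permeability barrier genes, beside 21.7% of all genes tested. In the other pathway lists only *cpg-9* was without overlap, and it was higher in high exopher worms.

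*cav-1*, the caveolin gene of cortical granules, had the largest change among the exocytosis genes, with normalized counts of 23180, 29363 and 16402 in low exopher replicates and 25280, 35592 and 21472 in high exopher ones. The groups overlapped, the high exopher library was the higher one in each number, and the log2 fold change was 0.26 (adjusted p = 0.724 from edgeR, 0.0459 with the block). In the other lists the largest changes were those of *egg-4*, a pseudophosphatase that acts with EGG-3 (-0.17), *gna-1* of amino sugar synthesis (0.20), *sqv-6*, which encodes the xylosyltransferase that starts chondroitin chains (-0.26), and *cpg-9* (0.35). None of these 4 had an adjusted p below 0.05 from edgeR, with values between 0.307 and 0.732, or between 0.0659 and 0.167 for *egg-4*, *sqv-6* and *cpg-9* and 0.437 for *gna-1* with the block. *egg-4* has a near-identical copy in *egg-5*, as *cyp-31A2* has in *cyp-31A3*, so single values of these genes are uncertain.

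Oocyte and germline markers gave the background for these values. Of 14 oocyte markers and 16 germline markers, 0 were called in edgeR (5.74% of all genes tested were) and 0 had an unadjusted p below 0.05 (17% had), with median log2 fold changes of -0.025 and -0.0097. The largest change among the oocyte markers was that of *lin-41*, which encodes a TRIM protein of oocyte growth (-0.21, adjusted p = 0.629 from edgeR), and among the germline markers that of *mes-3*, a chromatin regulator gene (-0.18, adjusted p = 0.577 from edgeR). The 10 markers of zygotic transcription in embryos had a median of -0.12, with *hlh-25* lowest at -0.59 (adjusted p = 0.736 from edgeR). The 8 somatic gonad markers had none called, with a median of -0.0081, 4 of them above 0 and 4 below. Of these, *lim-7* of the gonadal sheath had the largest change, 0.49 (adjusted p = 0.208 from edgeR). The innexin genes *inx-8* and *inx-9* went the other way, at -0.35 and -0.26 (adjusted p = 0.466 and 0.656 from edgeR). With the replicate block *inx-8*, a sheath innexin gene, was the only one of the 8 with an adjusted p below 0.05 from edgeR (0.0248). Among the 6 body wall muscle markers the largest change was that of the myosin gene *myo-3* (0.70, adjusted p = 0.0234 from edgeR), whose promoter also drives the transgenes of the strain. The median of the 6 was -0.45, with 4 of them below 0, and none passed the fold change threshold. *unc-15*, the paramyosin gene, was at -0.58 (adjusted p = 0.0458 from edgeR, 0.0638 with the block), and the myosin gene *unc-54* at -0.53 (0.0866, and 0.103 with the block). DESeq2's Wald test with the block gave an adjusted p of 4.95e-04 for *unc-15* and 0.00246 for *unc-54*. The troponin I genes *unc-27* and *tni-3* were at -0.36 and -0.63 (adjusted p = 0.161 and 0.303 from edgeR, and 0.0117 and 0.0253 with the block).

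**Figure D4:**
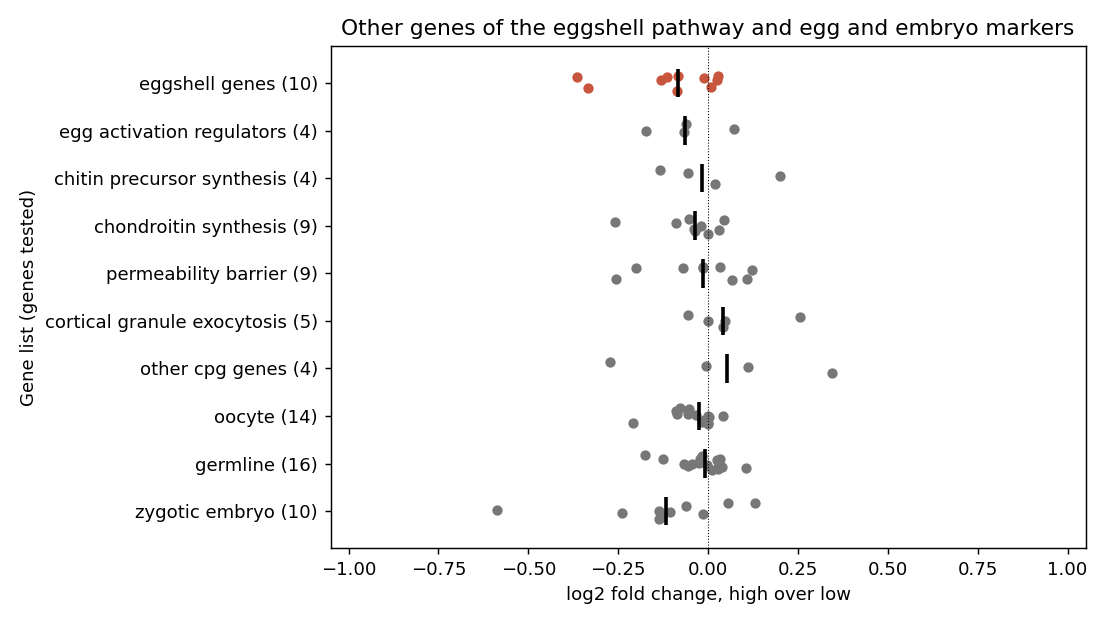
Log2 fold change, high over low exopher, of each tested gene in the 10 eggshell genes (red) and in lists of the eggshell pathway and of oocyte, germline and zygotic embryo markers (grey), with the median of each list as a black line. All list medians lie between -0.12 and 0.053, and *perm-2* and *perm-4* are the lowest of the 10.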

How the data were processed

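Counts were used as deposited. The authors trimmed reads with Trimmomatic 0.36, aligned them with STAR 2.5.2b to an Ensembl worm genome (release: not given in the sources used here) and counted uniquely aligned reads in exons with featureCounts of Subread 1.5.2. A table of counts divided by size factors was not used here. Groups and replicate numbers came from the sample labels, and positions and exon lengths from Ensembl release 115 (WBcel235). The sources used here do not state whether strand was used in counting.

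The main test was that of edgeR 4.0.16 in R 4.3.3 (filterByExpr, TMM, robust quasi-likelihood F test, no covariate, Benjamini-Hochberg over all genes tested). Alternatives used DESeq2 1.42.0 and limma 3.58.1. A standard error is the log2 fold change over the square root of F, and intervals are 95%. Normalized counts are counts over the effective library size times its mean. The main test was also run on simulated data. The changes put in were larger than those of the members and no replicate effect was simulated. That run therefore does not cover the replicate block or changes as small as those of the members.

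After subtracting group means, libraries sharing a number correlated at r = 0.282, 0.259 and 0.345 over 15883 genes, which are not independent replicates. The pairing comes from these data and from the numbers in the labels, which do not state what a number shares. The labels number the libraries as biological replicates without saying how the worms of each were grown, so p-values measure the spread between these libraries.

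Members and lists were chosen with earlier results of these data known. The genes named are all members, and in each other list the gene with the largest absolute log2 fold change and those called, up to 5, with the 5 genes most like the members in pattern. *pod-2*, *inx-8*, *inx-9*, *oma-1*, *rme-2*, *unc-15*, *unc-54*, *unc-27*, *tni-3* and genes named as examples of a list were named outside this rule. The lists' symbols *cpg-5*, *cpg-6* and *msd-1* were not matched to 1 gene. Genome and protein sequences were not used here.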

Additional observations from a re-analysis of the deposited data

How the results depend on the processing

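No member was called under any alternative run, and no gene of the 35 in the pathway lists under the planned ones. Over all genes, 469 were called higher and 442 lower, and 670 were lower without the filter on low counts. Leaving out 1 library gave between 5 and 465 higher and between 0 and 663 lower, namely 197 and 343 without low replicate 1, 190 and 378 without low replicate 3, 5 and 0 without high replicate 1, 217 and 144 without high replicate 2, and 47 and 17 without high replicate 3. With the replicate block the counts were 682 and 584. Pairing by replicate number brought only *perm-2* and *perm-4* of the members to an adjusted p below 0.05, with edgeR and with DESeq2 (5.16e-05 and 9.75e-06), and with germline, RLE or upper-quartile scaling it was between 0.0147 and 0.0345 from edgeR. These fits, other than the first block fit, were added after seeing the data. The log2 fold changes of *perm-2* and *perm-4* stayed below 0 in every alternative run, from -0.47 to -0.20 and from -0.54 to -0.19 with the planned ones.

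Small values changed sign. *egg-2* was at -0.0022 with RLE size factors and with DESeq2, and at -0.0095 with either in the replicate block. *egg-3* was at 0.0046 with upper-quartile scaling, at 0.0070 with germline scaling and at 0.0053 with germline scaling in the block. *cpg-3* was at -0.0026 with RLE size factors or DESeq2 in the block. In the replicate block without number 1, *cpg-3* was at -0.030, *egg-1* at -0.0071 and *egg-2* at -0.017. Without number 3 they were at -0.075, -0.015 and -0.036, and without number 2 *egg-3* was at 0.021. With 1 library left out, the values ranged from -0.23 to 0.056 for *cbd-1*, from -0.23 to 0.022 for *cpg-1*, from -0.14 to 0.17 for *cpg-3*, from -0.13 to 0.14 for *egg-1*, from -0.13 to 0.10 for *egg-2* and from -0.13 to 0.044 for *egg-3*. The cause was not tested.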
